A study of Mus musculus with 2 samples.

Results

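The matrix metalloproteinases (MMPs), the ADAM and ADAMTS metalloproteases and the tissue inhibitors of metalloproteinases (TIMPs) were followed in KPC2, a mouse pancreatic cancer line, and in its gemcitabine-resistant derivative. Genes were taken by symbol alone, as Mmp, Adam, Adamts or Timp followed by a number, which gave 80 of the 55468 genes of the deposited table. They comprise 23 MMP, 34 ADAM, 19 ADAMTS and 4 TIMP genes. Wild type cells were untreated, whereas the resistant cells had long been grown with gemcitabine (260 ng/mL), a nucleoside drug. The medium was otherwise the same for both. RNA was sequenced from 1 library per group, so no test between the conditions is possible and every difference below describes these 2 libraries. An acute response to the drug and a stable trait of the resistant line cannot be told apart, and the labels do not say whether the resistant line is 1 clone.

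MMPs, ADAMs and ADAMTSs are zinc-dependent proteases. They are made as inactive precursors, which other proteases such as furin or plasmin, or another MMP, cut to activate them. MMPs cut collagens, laminins and fibronectin, ADAMs release growth factors, cytokines and receptors from the cell surface, and ADAMTSs cut proteoglycans and process procollagens. TIMPs block the active site of these enzymes, each with its own preferences. In pancreatic tumours much of this system is known from fibroblasts and leukocytes, which a cultured tumour line should lack.

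Levels are in FPKM, fragments scaled by transcript length and library depth, so they can be compared between genes. Genes that reached 1 FPKM in either library are called measured: these were 16 of the 80 and 12193 in the whole table. Another 27 lay between 0 and 1 FPKM, and 37 were listed at 0 in both libraries. Differences are log2 ratios of resistant over wild type after adding 1 FPKM to each value, a scale that makes the difference of a low gene look smaller than it is. The line for a call of at least 2-fold lies at a ratio of 1 or -1. Low values fell on steps of whole fragments, and intervals at 95% were derived from these. They cover counting error only. Summed FPKM came to 998508 for wild type and 1197280 for resistant cells.

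The keratin genes Krt8, Krt18 and Krt19 stood between 1123 and 1864 FPKM in both libraries and E-cadherin, Cdh1, at 206 FPKM in wild type and 164 FPKM in resistant cells. Of the 7 epithelial markers, Epcam, Cldn4 and Cldn7 were below 1 FPKM in both. All 10 fibroblast markers were below 1 FPKM, with summed levels of 0.34 FPKM in wild type and 0.24 FPKM in resistant cells, and Col1a2, Lum, Postn, Thy1 and Fap were listed at 0 in both. All 5 endothelial and 4 mast cell markers were below 1 FPKM too. Of 5 acinar markers Cela1 alone was measured, at 4.38 FPKM in wild type and 1.48 FPKM in resistant cells.

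The stretches before the start sites of Adamts1, Adam8 and Mmp15, the 3 measured members with the highest ratios, and of Mmp10, the member closest below 1 FPKM, are shown first, since transcription of several MMP genes is known to run through the AP-1 site close to the start. The RefSeq promoter table (GRCm38.p6) held an entry for 50 of the 80 genes. Up to 250 bases before the RefSeq start were searched on both strands. The AP-1 site was read as TGAGTCA, and the cAMP response element, which no member had, as TGACGTCA. A PEA3-type ETS site was read as AGGAAG. The GC box was taken to be GGGCGG, which Sp1 factors bind. For the TATA box the letters TATAAA were used, and for a C/EBP-ATF response element TGATGNAA. Capitals mark matches in either orientation, and in the promoters shown no match overlapped another. Bases inside the GENCODE gene were left off, so the stretch of Mmp15 is 222 bases long.
Adamts1, chr16:85803114-85803363 (minus strand): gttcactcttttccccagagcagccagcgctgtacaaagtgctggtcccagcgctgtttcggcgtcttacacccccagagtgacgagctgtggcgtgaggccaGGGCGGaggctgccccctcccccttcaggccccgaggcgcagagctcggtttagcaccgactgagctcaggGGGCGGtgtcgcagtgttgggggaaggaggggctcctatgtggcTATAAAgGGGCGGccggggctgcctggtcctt
Adam8, chr7:139992563-139992812 (minus strand): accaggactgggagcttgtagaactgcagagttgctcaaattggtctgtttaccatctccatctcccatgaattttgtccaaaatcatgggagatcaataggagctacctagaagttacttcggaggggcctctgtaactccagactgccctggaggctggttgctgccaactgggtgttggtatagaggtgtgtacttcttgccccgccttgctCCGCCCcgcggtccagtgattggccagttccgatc
Mmp15, chr8:95352046-95352267 (plus strand): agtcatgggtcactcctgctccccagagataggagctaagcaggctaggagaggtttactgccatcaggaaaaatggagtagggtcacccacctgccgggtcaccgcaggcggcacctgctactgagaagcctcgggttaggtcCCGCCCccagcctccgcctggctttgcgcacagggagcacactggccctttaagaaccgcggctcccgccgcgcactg
Mmp10, chr9:7502092-7502341 (plus strand): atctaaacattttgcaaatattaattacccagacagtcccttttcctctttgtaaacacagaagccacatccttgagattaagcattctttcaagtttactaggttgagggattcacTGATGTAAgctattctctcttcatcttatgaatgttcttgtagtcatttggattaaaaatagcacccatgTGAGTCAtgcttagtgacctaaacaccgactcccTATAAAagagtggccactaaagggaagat
Adamts1, the ADAMTS gene with the largest difference, had 3 GC boxes and a TATA box 32 bases before its start. Adam8 and Mmp15 had 1 GC box each and no TATA box. None of these 3 held the AP-1 letters. Mmp10 carried an AP-1 match, a TATA box and a C/EBP-ATF match, the last in no other of the 50 genes.

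In the MMP cluster of chromosome 9, which lies between 7272514 and 7699585 and holds 10 of the members, 7 had the AP-1 letters before their start. Over all 32851 promoters of the table the share was 4.46%, and among the 40 members outside the cluster 2 had them, Adam19 and Adam29. The 4.46% counts promoter entries of all genes, whereas members were counted by gene, and Mmp12 and Mmp7 have 2 entries each. The stretches of 30 bases around the match are given on the strand of each gene, with AP-1 in capitals, so that the flanking bases can be compared. Those of Mmp1a and Mmp1b, a pair of close copies, resemble each other.
Mmp13: accccaaagtggTGACTCAtcactatcatg
Mmp12: tgacatcaacagTGAGTCAgatagaggatt
Mmp1b: tgttacaaagccTGAGTCAtatagcctctg
Mmp3: tggaagcaattaTGAGTCAgttttcgggtg
Mmp1a: tgttgtcaaccaTGAGTCAcatagcctctg
Mmp10: atagcacccatgTGAGTCAtgcttagtgac
Mmp7: aaagtgtgcaaaTGAGTCAcctatttccac
The match of Mmp13 reads TGACTCA, the reverse complement, and lies 35 bases before the start. In the other 6 genes it lies 44 to 93 bases before it. For Mmp12 the GENCODE gene begins further upstream than the RefSeq start. Mmp8, Mmp20 and Mmp27 had no match in this window. A match describes the letters and is no evidence of binding.

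The promoter of the measured member of that cluster, Mmp13, had a TATA box and a pair of ETS matches beside AP-1.
Mmp13, chr9:7272264-7272513 (plus strand): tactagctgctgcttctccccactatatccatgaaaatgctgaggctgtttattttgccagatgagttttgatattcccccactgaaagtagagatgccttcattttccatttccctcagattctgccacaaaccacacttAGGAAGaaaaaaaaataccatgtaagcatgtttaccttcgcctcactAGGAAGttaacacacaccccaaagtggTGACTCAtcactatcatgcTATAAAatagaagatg
The other measured members with an entry had a GC box: it was found in 13 of 14, and Mmp13 was the exception. Of these genes, Adam10, Adam17, Mmp14, Timp1 and Timp3 also had an ETS match and Adamts1 a TATA box, whereas AP-1 was found in Mmp13 alone. Over all 50 members with an entry, measured or not, 20 (40%) had it, against 32.7% of all promoters. The 32.7% counts promoter entries of all genes, whereas members were counted by gene. The share among promoters of measured genes was not computed, so 13 of 14 cannot be called particular to these members.

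Adamts1 and Adam8, 2 of the 16 measured genes, passed the 2-fold line with higher values in resistant cells, and no member was lower by as much. Of all measured genes 7.9% passed the line upwards and 8.37% downwards, so 2 of 16 (12.5%) lies near the background. With a pseudocount of 5 instead of 1 neither gene passed the line, and no member did. The median log2 ratio of the 16 was 0.33, against 0.016 over all measured genes, and 10 of the 16 were above 0, against 50.8% of all measured genes.

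**Figure D1:**
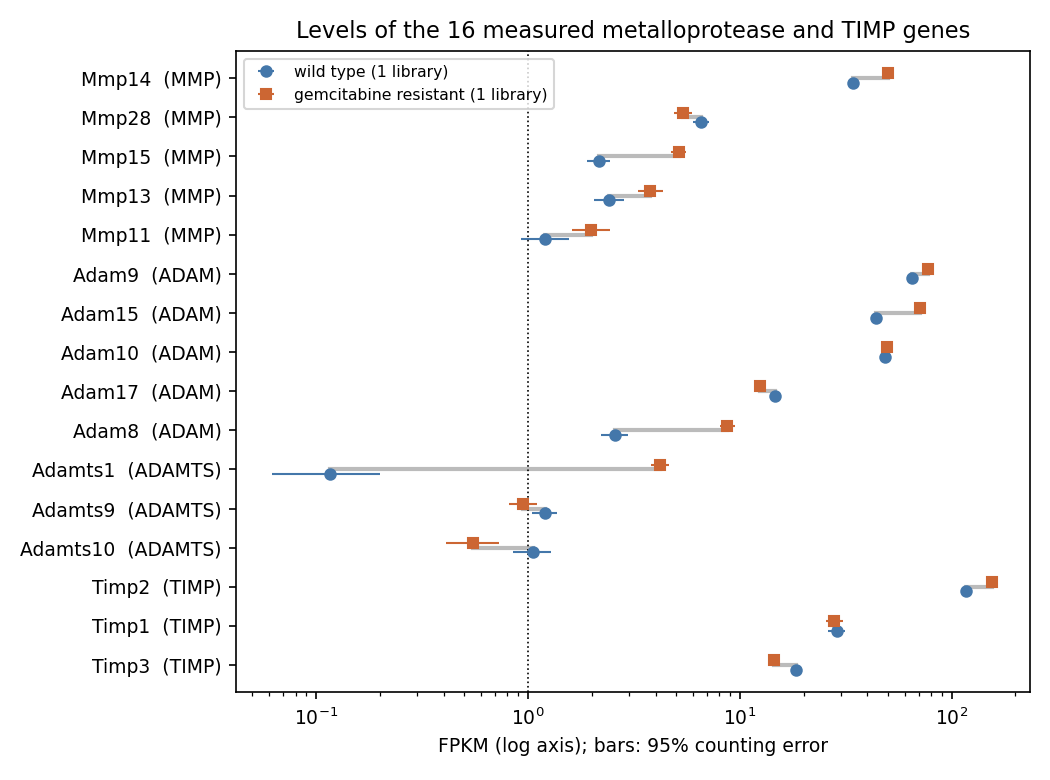
FPKM of the 16 measured genes (log axis) in the wild type library (circles) and the resistant library (squares), with 95% counting error as bars and a dotted line at 1 FPKM. Adamts1 spans the widest gap, from 0.116 to 4.21 FPKM, whereas the points of Adam10 and Timp1 nearly coincide.

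Adamts1, a secreted protease that cuts the proteoglycans versican and aggrecan, lies on chromosome 16 at 85793827 to 85803113 (GRCm38, minus strand). It stood at 0.116 FPKM in wild type (0.062 to 0.199) and at 4.21 FPKM in resistant cells (3.83 to 4.61). On its longest coding transcript these levels correspond to about 13.0 and 454 fragments. Adamts1 thus stood near the limit of detection in wild type cells and well above it in resistant ones. The log2 ratio was 2.22, rank 163 of 12193 measured genes from the highest down, and the FPKM taken as such were 36.1 times higher (95% counting interval 20.9 to 68.4). Its wild type value rests on so few fragments that the size of the fold is loosely bounded.

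Adam8, a sheddase that removes its own prodomain and is known from leukocytes and invasive tumour cells, lies on chromosome 7 at 139978932 to 139992562 (minus strand). Its level was 2.57 FPKM in wild type (2.21 to 2.98) and 8.73 FPKM in resistant cells (8.04 to 9.46), a log2 ratio of 1.45 and rank 433. Taken as such the FPKM were 3.40 times higher (2.87 to 4.04). Leukocyte markers stood beside it as follows. Of 9 macrophage markers 4 were measured, with summed levels of 42.2 FPKM in wild type and 40.3 FPKM in resistant cells. Cd68 (1.17 and 5.48 FPKM), Lyz2 (0.36 and 1.53 FPKM) and Mrc1 (3.74 and 7.31 FPKM) were higher in resistant cells and Cd14 was lower (36.8 and 25.7 FPKM). The defining markers Ptprc, Adgre1, Csf1r, Itgam and Cd163 were at or below 0.232 FPKM in both libraries. None of 6 neutrophil markers was measured, and their summed level was 0.24 FPKM in wild type and 1.56 FPKM in resistant cells. The part of leukocyte RNA in the level of Adam8 was not tested.

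Mmp15, a membrane-anchored MMP, followed with 2.16 FPKM in wild type (1.90 to 2.44) and 5.16 FPKM in resistant cells (4.75 to 5.59). Its log2 ratio of 0.96 lay just under the 2-fold line, although the FPKM as such were 2.39 times higher (2.06 to 2.78). With a pseudocount of 0.1 it passed the line, at 1.22. The gene lies on chromosome 8 at 95352268 to 95375080 (plus strand).

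**Figure D2:**
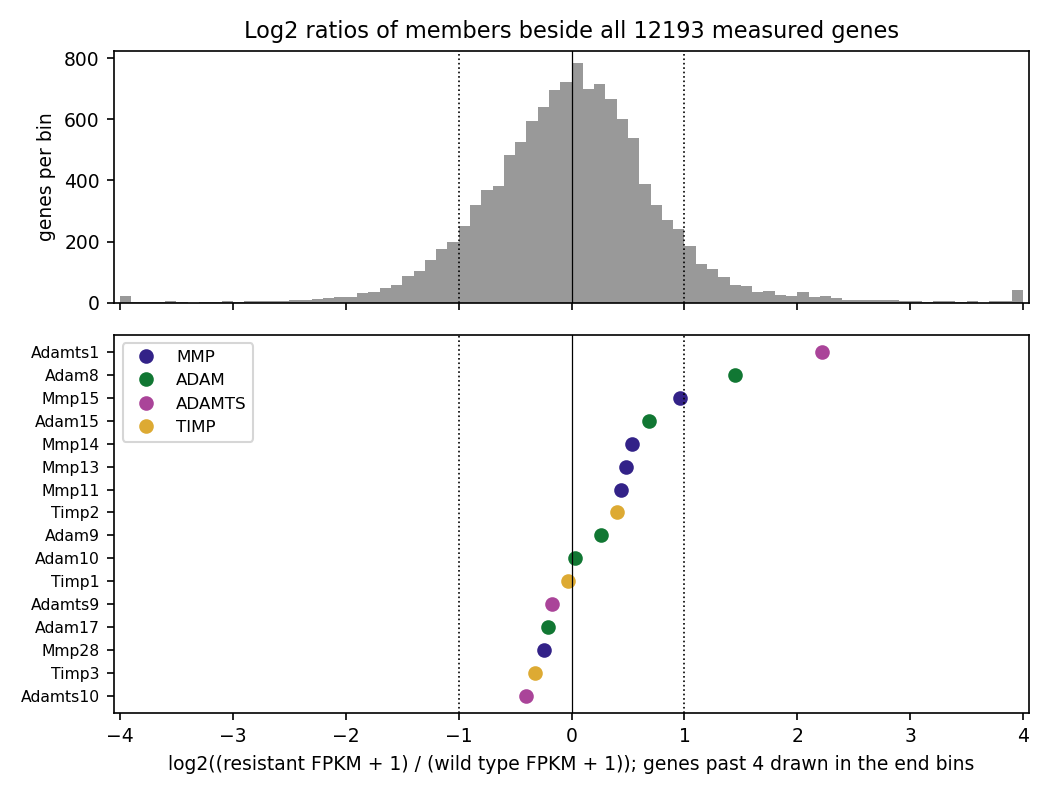
Top, the log2 ratios of all 12193 measured genes in bins; bottom, the 16 measured members, coloured by family, with dotted lines at a log2 ratio of 1 and -1. Adamts1 and Adam8 lie right of the 2-fold line, Mmp15 just inside it at 0.96, and no member lies left of -1.

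Mmp14, the membrane-anchored collagenase that activates pro-MMP2 in a complex with TIMP2, was the main MMP of both libraries. It stood at 34.1 FPKM in wild type and 49.9 FPKM in resistant cells, a log2 ratio of 0.54. It made up 72.4% of the summed MMP FPKM in wild type and 74.2% in resistant cells. Its best known client Mmp2 was listed at 0 in both libraries, and so was the other gelatinase gene, Mmp9. The remaining membrane-anchored genes were low: Mmp24 (0.219 FPKM in wild type, 0.072 FPKM in resistant cells) and Mmp17 (0.0066 and 0.021 FPKM) were under 1 FPKM, and Mmp16 and Mmp25 were listed at 0. Mmp24 shares 13.6% of its exon bases with BC029722, a gene on the opposite strand at 24.8 and 21.4 FPKM.

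Mmp28, the MMP known as epilysin from skin and other epithelia, stood at 6.57 FPKM in wild type and 5.40 FPKM in resistant cells (log2 ratio -0.24). It was the only measured MMP with a lower value in resistant cells, and it shares 466 exon bases with 1700020L24Rik on the opposite strand (3.83 and 3.73 FPKM). Mmp13, the main interstitial collagenase of the mouse, was at 2.42 FPKM in wild type (2.04 to 2.85) and 3.79 FPKM in resistant cells (3.30 to 4.33), with a log2 ratio of 0.48. The other collagenase genes were listed at 0, except for Mmp8 with 0.037 FPKM in wild type cells. Mmp11, stromelysin-3, was at 1.21 FPKM in wild type (0.925 to 1.55) and 1.99 FPKM in resistant cells (1.61 to 2.43), a log2 ratio of 0.44. A stretch of 155 exon bases (5.58% of its exon sequence) overlaps Chchd10 on the opposite strand, which stood at 15.9 FPKM in wild type and 101.9 FPKM in resistant cells. The labels and headers do not tell how shared fragments were divided, and the part of Chchd10 in the values of Mmp11 was not tested.

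Summed over all 23 genes, MMP levels were 47.1 FPKM in wild type and 67.2 FPKM in resistant cells, 1.43 times higher. The summed FPKM of the whole table, given above, was also higher in resistant cells. The family sums here and below were not corrected for this. Of the 5 measured MMPs 4 had a log2 ratio above 0.

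**Figure D3:**
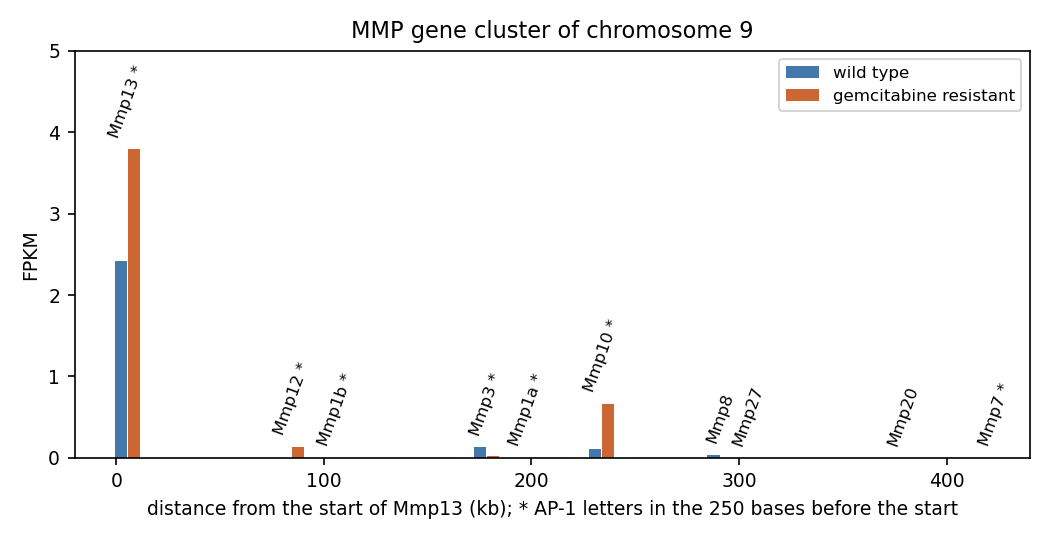
FPKM of the 10 genes of the chromosome 9 MMP cluster in wild type and resistant cells, placed by distance from the start of Mmp13 in kb; an asterisk marks genes with AP-1 letters before the start. Mmp13 alone passes 1 FPKM, Mmp10 reaches 0.662 FPKM in resistant cells, and 5 of the 10 are listed at 0 in both libraries.

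Within the chromosome 9 cluster the genes with AP-1 letters ranged from listed at 0 in both libraries to the level of Mmp13. Mmp10, stromelysin-2, was just under the measured level, at 0.107 FPKM in wild type (about 3.94 fragments) and 0.662 FPKM in resistant cells (about 23.6 fragments), or 6.20 times higher with a wide counting interval of 2.11 to 24.9. Mmp3, stromelysin-1, stood at 0.127 and 0.026 FPKM, but on about 4.92 and 0.98 fragments the counting interval of the ratio, 0.0041 to 1.88, includes no difference. Mmp12, the macrophage elastase, was listed at 0 in wild type and at 0.133 FPKM in resistant cells. Mmp1a, Mmp1b and the matrilysin gene Mmp7 were listed at 0 in both libraries, as were Mmp20 and Mmp27.

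The ADAM sheddases were the most abundant proteases of the set. Adam9, which cuts growth factor precursors and cell adhesion proteins, stood at 64.7 FPKM in wild type and 77.6 FPKM in resistant cells (log2 ratio 0.26). Adam15 had 43.7 and 70.8 FPKM, and its ratio of 0.68 was the largest among members at 5 FPKM or more in both libraries. Adam10, the sheddase of Notch and E-cadherin, was at 48.4 FPKM in wild type and 49.4 FPKM in resistant cells, with counting intervals that overlap (47.1 to 49.8 and 48.0 to 50.8), and its log2 ratio of 0.027 turned to -0.061 on scaling to the same upper quartile. Adam17, which releases TNF and most EGF receptor ligands, was slightly lower in resistant cells, at 12.5 FPKM against 14.6 FPKM in wild type (log2 ratio -0.21). In wild type cells Adam10 lay above Adam15 and in resistant cells below it, in both cases beyond counting error. A stretch of 311 exon bases of Adam17 overlaps Iah1 on the opposite strand, at 10.3 FPKM in wild type and 16.5 FPKM in resistant cells.

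The summed ADAM level was 175 FPKM in wild type and 220 FPKM in resistant cells (1.25 times), nearly all of it from Adam9, Adam10, Adam15 and Adam17. Adam8 accounted for 1.47% of it in wild type and 3.97% in resistant cells. Of the 9 genes listed as sheddases, Adam12, Adam19 and Adam28 were under 0.07 FPKM and Adam33 was listed at 0. None of the 25 other ADAM genes, most of them known from testis or brain, was measured, and 15 were listed at 0 in both libraries.

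The ADAMTS family was the least abundant, and its make-up differed most between the libraries. Adamts9, a versican-cutting protease, was at 1.20 FPKM in wild type (1.05 to 1.37) and 0.950 FPKM in resistant cells (0.812 to 1.10), a log2 ratio of -0.17. These intervals overlap slightly, and that of the ratio of FPKM, 0.645 to 0.971, lies below 1. Adamts10, which acts on fibrillin microfibrils, was at 1.05 FPKM in wild type (0.852 to 1.28) and 0.552 FPKM in resistant cells (0.408 to 0.730). Its log2 ratio of -0.40 was the lowest of the 16 measured members. The summed ADAMTS level was 2.55 FPKM in wild type and 7.01 FPKM in resistant cells, of which Adamts1 gave 4.57% and 60.0%. The shares of Adamts9 were 47.0% in wild type and 13.5% in resistant cells. The other 2 measured ADAMTS genes, Adamts9 and Adamts10, were thus both lower in resistant cells while the family sum was higher.

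Among these low ADAMTS genes, Adamts17 was listed at 0 in wild type and at 0.362 FPKM in resistant cells (about 51.8 fragments), and Adamts12, which cuts cartilage oligomeric matrix protein, at 0 and 0.259 FPKM (about 49.9 fragments). Adamts6 stood at 0.045 FPKM in wild type and 0.264 FPKM in resistant cells, 5.92 times higher (2.57 to 16.1). The procollagen N-propeptidase genes Adamts2, Adamts3 and Adamts14 did not pass 0.03 FPKM in either library. Of the members under 1 FPKM, Mmp10 and Adam23 are named for being closest to that level, and the others were named after their values were seen.

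**Figure D4:**
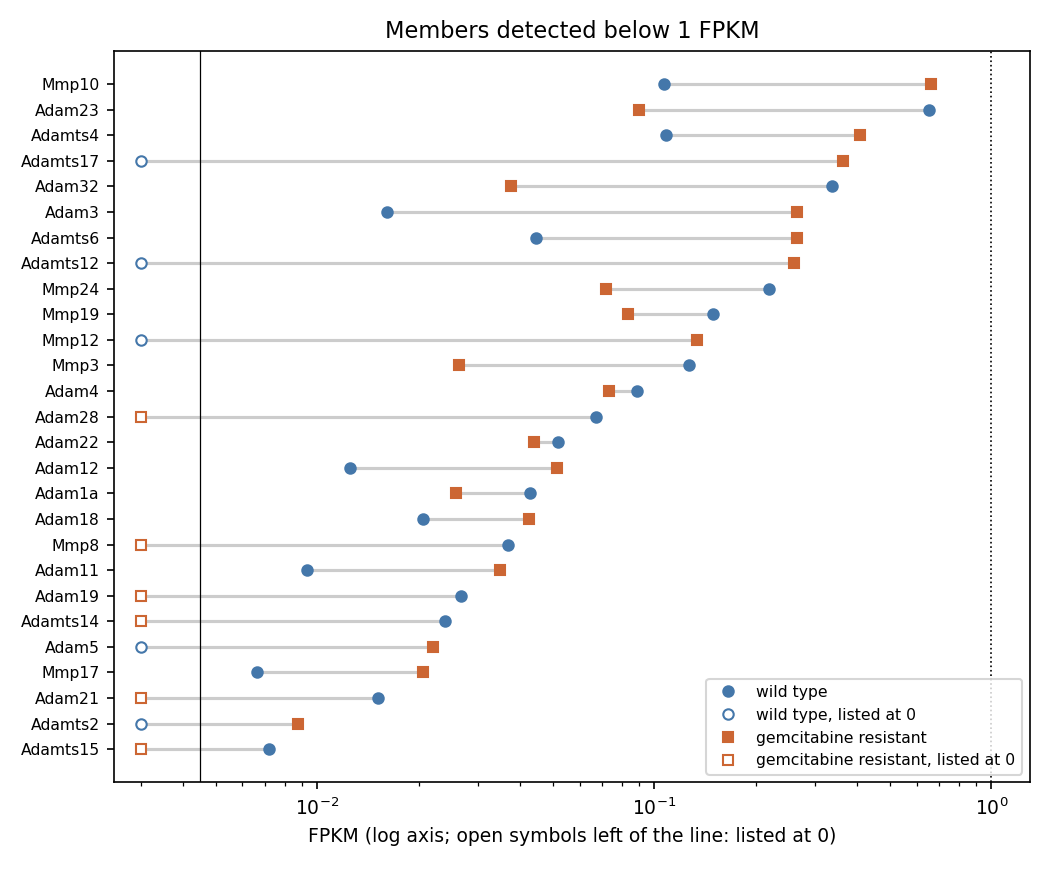
FPKM (log axis) of the 27 genes detected below 1 FPKM, in wild type (circles) and resistant cells (squares), with open symbols at the left for values listed at 0. Mmp10, Adamts17, Adam3, Adamts6 and Adamts12 are higher in resistant cells, and Adam23, Adam32 and Mmp24 are lower.

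In the other direction, Adam23, a brain ADAM without protease activity that binds LGI proteins and integrins, was just under the measured level in wild type cells at 0.655 FPKM (0.531 to 0.799) and at 0.090 FPKM in resistant cells (0.048 to 0.154). The wild type value was 7.27 times that of resistant cells. Adam32 was at 0.337 FPKM in wild type and 0.038 FPKM in resistant cells. Of the 27 low genes, 16 had a value in both libraries, 5 were listed at 0 in wild type only and 6 in resistant cells only, the last with wild type values of at most 0.067 FPKM.

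Timp2 was the most abundant gene of the whole set. It stood at 117 FPKM in wild type and 155 FPKM in resistant cells, a log2 ratio of 0.40. Timp1, which many cells induce on growth factor and cytokine signals, was level, at 28.6 FPKM in wild type (26.1 to 31.3) and 27.9 FPKM in resistant cells (25.4 to 30.6). Timp3, the TIMP that is held in the matrix and blocks ADAM17 and aggrecanases, was lower in resistant cells, at 14.5 FPKM against 18.4 FPKM, with a log2 ratio of -0.32. Timp4 was listed at 0 in both libraries.

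Timp1 lies within the span of the synapsin gene Syn1 on the opposite strand without sharing exons, and Timp3 shares 21.3% of its exon bases with Syn3. Both synapsin genes were under 0.42 FPKM in both libraries. The summed TIMP level was 164 FPKM in wild type and 198 FPKM in resistant cells, 3.49 and 2.94 times the summed MMP level of the same library. The summed inhibitor FPKM thus exceeded the summed MMP FPKM in both, though FPKM say nothing of the amount of active protein.

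In wild type cells the order of levels began with Timp2, Adam9, Adam10, Adam15, Mmp14, Timp1, Timp3, Adam17 and Mmp28, each apart from the next beyond counting error. Adam8, Mmp13 and Mmp15 overlapped one another, and so did Mmp11, Adamts9 and Adamts10. In resistant cells Adam8 had passed Mmp28, Mmp14 and Adam10 overlapped, and so did Mmp28 and Mmp15, and Adamts1 and Mmp13.

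Genes that act on or through these proteases were taken from fixed lists. Of the 11 activators 7 were measured, 3 of them at least 2-fold higher in resistant cells and none lower, with a list median of 0.29. All 3 belong to plasminogen activation: the urokinase gene Plau (3.38 FPKM in wild type, 8.27 FPKM in resistant cells), the tissue activator Plat (37.1 and 88.6 FPKM) and the urokinase receptor Plaur (92.5 and 329 FPKM). Plasminogen itself, Plg, was listed at 0. The proprotein convertases, which cut the prodomains of ADAMs, ADAMTSs and membrane-anchored MMPs inside the cell, were lower within 2-fold: Furin stood at 39.3 FPKM in wild type and 26.7 FPKM in resistant cells, and Pcsk6 at 39.7 and 20.3 FPKM (log2 ratio -0.93). Bsg, the MMP inducer basigin, was at 249 and 305 FPKM.

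Reck, a membrane-anchored MMP inhibitor, was listed at 0 in both libraries. Of 9 partners of ADAM10 and ADAM17 7 were measured. Among these 7, 1 was at least 2-fold higher, against 7.9% over all measured genes. It was Rhbdf2, the inactive rhomboid that carries ADAM17 to the surface (8.47 FPKM in wild type, 20.7 FPKM in resistant cells). Its relative Rhbdf1 stood at 8.41 and 11.2 FPKM. The ADAM17 stabiliser Frmd8 was lower within 2-fold, at 4.26 FPKM against 7.24 FPKM in wild type.

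Among 24 shed substrates 17 were measured, and 2 were at least 2-fold higher and none lower, with a median of 0.066. A count of 2 in 17 is near the 7.9% over all measured genes. They were the EGF receptor ligand Areg (log2 ratio 2.27) and the transmembrane chemokine Cxcl16 (15.3 FPKM in wild type, 64.0 FPKM in resistant cells). Hbegf lay just under the line at 33.7 and 66.2 FPKM (log2 ratio 0.95), while the ligand gene Tgfa was lower within 2-fold (17.0 and 11.4 FPKM). The ADAM substrates thus lay on both sides of equal levels. Of 16 matrix substrates 7 were measured, with a median of 0.61. All 7 had a log2 ratio above 0, against 50.8% of all measured genes. Col4a1, at 0.063, did not once the libraries were scaled to the same upper quartile. At least 2-fold higher were 2 of the 7, fibronectin, Fn1 (log2 ratio 2.32), among them, against 7.9% of all measured genes. With 7 genes, a departure from these shares was not tested. The proteoglycan substrates of ADAMTS1 differed from each other: versican, Vcan, was at or below 0.06 FPKM, and aggrecan, Acan, stood at 20.8 and 27.4 FPKM.

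The ADAMTS-like genes, which lack the protease domain, had 3 of 6 measured and none at least 2-fold apart, with Thsd4 closest at 17.5 FPKM in wild type and 33.8 FPKM in resistant cells. Among 7 other metzincins 2 were measured, and Mep1b, a meprin subunit, was higher near the measured level (0.098 and 1.22 FPKM, log2 ratio 1.01). A list of 2 measured genes is too short to set against the 7.9% over all measured genes. Of 12 AP-1 and ETS factors 10 were measured, with 1 at least 2-fold higher, none lower and a median of 0.24. A count of 1 in 10 is also near the 7.9% over all measured genes. Jun stood at 2.71 FPKM in wild type and 6.89 FPKM in resistant cells and Junb at 60.9 and 109 FPKM, whereas Fosl1 was lower within 2-fold, at 16.8 FPKM against 28.4 FPKM. Genes of these lists within 2-fold are named after their values were seen.

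**Figure D5:**
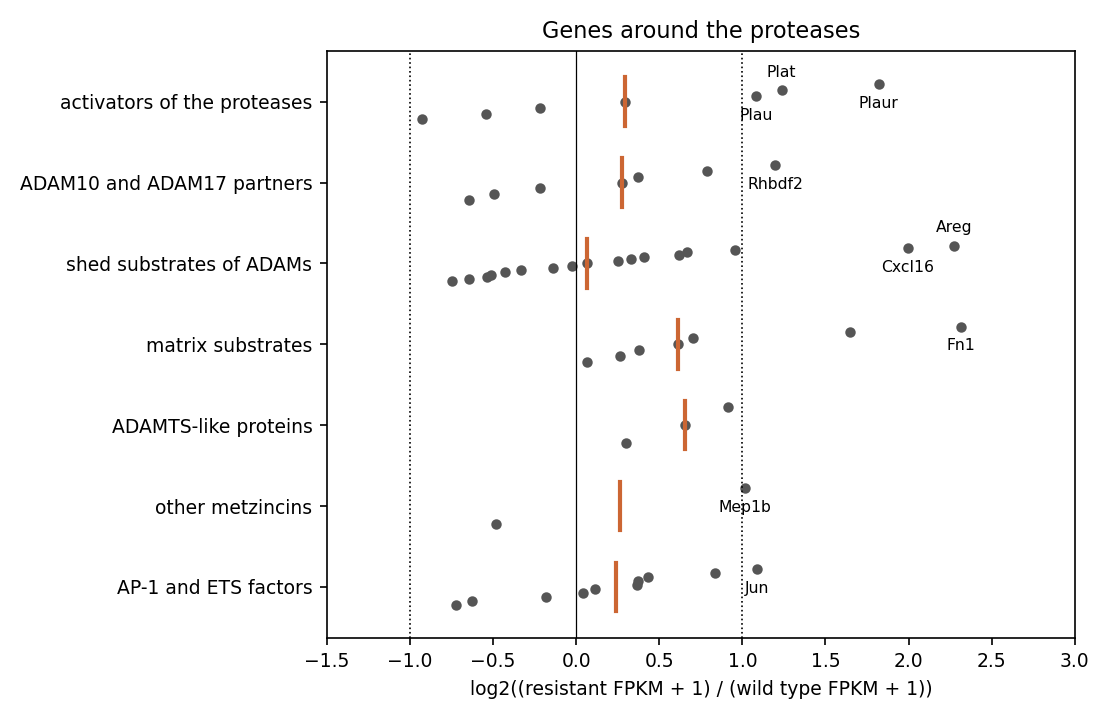
Log2 ratios of the measured genes of 7 fixed lists around the proteases, 1 dot per gene, with the median of each list as a coloured bar and dotted lines at 1 and -1. The 3 plasminogen activation genes, Rhbdf2, Areg, Cxcl16, Fn1, Mep1b and Jun are among the genes right of the upper line, and no gene lies left of the lower one.

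The authors' deposited table held their own test of the 2 libraries for 18 of the members and called none, while over the whole table it called 56 of 13850 tested genes, or 0.404%. The q-value of every tested member was 0.998 in the authors' deposited table, Adamts1 and Adam8 included.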

How the data were processed

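RNA of 1 wild type and 1 gemcitabine-resistant KPC2 library was sequenced, per the labels. HISAT2, StringTie and the build GRCm38 are listed in the submitters' processing notes without a role, and the tool behind each value, its version and the strand setting are not given here. The file header names no unit, and the authors' deposited values were taken to be FPKM: they hold fractions, add up to unequal totals and step by whole fragments when low. Beside them the authors deposited their own log2 fold change, a test score, a p-value and a q-value, per the file headers.

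Rows with the same symbol were added up, and 13 rows marked as failed or too deep to test were dropped, no member among them. For single-transcript genes 1000 to 8000 bases long, the product of FPKM and length (160 bases taken off) gave, below 5.5 fragments, a number within 0.1 of a whole one in 94.0% of wild type and 94.4% of resistant values. For members, 7 of 7 such values did. Then 1 fragment per kilobase was worth 0.0424 FPKM in wild type and 0.0438 FPKM in resistant cells. Fragments of a member were taken on its longest coding GENCODE M21 transcript, so they are too high where a shorter one is expressed, and intervals are exact Poisson (levels) or Clopper-Pearson (ratios) at 95%.

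Every member at 1 FPKM or more is named, with those nearest below, and up to 4 genes per direction of other lists. The members and lists were chosen with earlier results of these data known. Some results the rule takes are not reported here. Results were recomputed with a pseudocount of 0.1 or 5, after 2 rescalings, with the highest row per symbol and with a 4-fold line. They were also recomputed with a level filter at 5 FPKM, and without one for genes above 0 in both libraries. Near-identical transcripts (at least 90% identity over 300 bases) were sought with BLAST 2.17.0+. Scripts ran under scipy 1.17.1, pandas 2.3.3, numpy 2.4.6, matplotlib 3.10.9 and Python 3.11.15. The 2-fold line was tried on simulated data with counting error only. The altered genes there were at 5 FPKM or more in wild type and were changed by 4-fold or more. Adamts1 and Adam8 lie below 5 FPKM in wild type, so the simulation does not cover them.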

Additional observations from a re-analysis of the deposited data

How the results depend on the processing

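With 1 library per group, no setting could test the conditions, and no library could be left out. No paired analysis was possible because each group has 1 library. The count of members at least 2-fold higher, 2 in the report, was 0 with a pseudocount of 5, 1 with a filter of 5 FPKM (Adam8) and 1 with a 4-fold line (Adamts1). It was 3 with a pseudocount of 0.1, which added Mmp15. The count at least 2-fold lower stayed at 0 in every setting listed. The median log2 ratio of 0.33 was 0.21 with a pseudocount of 5 and 0.26 with a filter of 5 FPKM. It was 0.31 after rescaling to a median of 0 and 0.24 after rescaling to the same upper quartile. Without a level filter it was 0.029, over the 32 members above 0 in both libraries. Members listed at 0 in either library were left out there. The cause was not tested. Of 80 values of the 16 members under the other settings, 77 stayed on their side of the line and none of the called ones changed sign. The uncalled Adam10 did, after upper quartile rescaling. Over all genes, the pseudocounts of 5 and 0.1 gave 428 and 1315 higher and 297 and 1553 lower, against 963 and 1021, the filter of 5 FPKM 703 and 710, and the 4-fold line 220 and 128. Of the measured members, Adam15, Adam17, Adamts9, Mmp28 and Timp3 share at least 300 exon bases with an overlapping neighbour on the opposite strand, and the alignment of transcripts found no near-identical copy of a measured member elsewhere.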

Other observations

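On chromosome 8, from 24602246 to 25016927, Adam9 is the last of 5 neighbouring ADAM genes, and the other 4, known mainly from testis, were below 1 FPKM while Adam9 was at 64.7 and 77.6 FPKM. Adam3, which sperm need to reach the egg, stood at 0.016 FPKM in wild type (about 0.98 fragments) and 0.265 FPKM in resistant cells (about 15.6 fragments), 16.4 times higher with a counting interval of 2.51 to 729. Its neighbour but 1, Adam32, was at 0.337 FPKM in wild type (about 18.2 fragments) and 0.038 FPKM in resistant cells (about 1.97 fragments). Adam5 and Adam18, between and beside them, did not pass 0.05 FPKM. The 8 ADAM genes of 2 further groups on chromosome 8 were listed at 0 in both libraries. Several of these are over 90% identical to one another, so a fragment can match several of them. All of these genes were chosen after their values were seen.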
